A study of Sus scrofa with 30 samples.

Results

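In porcine neonatal islet cell clusters (NICCs), 111 of 25880 counted genes had lower RNA levels both in culture with fetuin-A and in culture with SB431542 than with the control protein HSA. They were chosen on measured values. Levels in CPM are the counts of a gene per 1000000 total counts of its library, and were averaged over the 4 libraries of a group. A gene was taken when the log2 ratio of its mean CPM, with 0.5 CPM added to each mean, was −1 or lower for fetuin-A over HSA/day 10 and also for HSA + SB over HSA/day 10. In addition, the highest of its 6 group means had to reach 1 CPM. Of the 13860 genes that reached this level, 847 had the fetuin-A ratio, 264 had the SB ratio and 111 had both. Both ratios use the HSA/day 10 libraries, so they describe the choice and were not tested.

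Poly-A-selected, strand-specific RNA sequencing covered 24 libraries in 6 groups of 4, from 4 independent islet preparations, and no library is assigned to a preparation. The paper reports sequenced clusters from piglets of different ages, and no library is assigned to an age. HSA/day 6 was immature islet clusters of neonatal pigs at culture day 6, in medium with human serum albumin (HSA). At culture day 10 the clusters had matured with HSA (HSA/day 10), with fetuin-A (fetuin-A), with HSA and SB431542 (HSA + SB), with HSA and LDN (HSA + LDN), or with HSA, SB431542 and LDN (HSA + SB + LDN). SB431542 inhibits the kinase of the TGF-β receptor (TGFBR), and the labels give neither the identity nor the dose of LDN. The libraries held between 18883734 and 24346119 counts in total (median 20924473). The labelled tissue was checked on hormone genes. The mean level of GCG, which encodes glucagon, was 3564 ± 775 CPM (SD, n = 4) in HSA/day 6 and 19745 ± 4998 CPM in HSA/day 10, and the mean level of INS, which encodes insulin, was 747 ± 504 and 2596 ± 2321 CPM. PDX1, IAPP and UCN3, which also define beta cells, could not be looked up, because no counted identifier was matched to these symbols. A symbol was available for 94 of the 111 genes, and the other 17 are named by identifier.

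TGF-β ligands bind a pair of receptor kinases that phosphorylate SMAD2 and SMAD3, and these enter the nucleus and switch on target genes, including their own feedback inhibitors. In fibroblasts and pancreatic stellate cells the pathway is best known for raising the production of collagens, fibronectin and other extracellular matrix. In the neonatal islet, matrix-producing mesenchymal cells lie next to the endocrine cells, and TGF-β family signals take part in endocrine differentiation.

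The third HSA/day 10 library stood apart from the other 3 and bears on the choice of the genes. The 111 genes together held 1.15, 1.18, 0.431 and 1.26% of the counts in the 4 HSA/day 10 libraries. Replicate 3 was the lowest HSA/day 10 library for 88 of the 111 genes (79.3%), and for 25.9% of all genes that reached 1 CPM. For 60 of the 111 it was at or below 50% of the lowest other HSA/day 10 library. For 67 genes it lay below the highest fetuin-A library, and for 56 below the highest HSA + SB library. The mean share was 1.004 ± 0.384% (SD, n = 4) with this library and 1.19 ± 0.0550% (n = 3) without it. Chosen without replicate 3, 154 genes met the rule, and 109 of the 111 were among them; the other 2, RGS4 and HHIPL2, were highest in replicate 3 among the HSA/day 10 libraries, and HHIPL2 was named after its values were seen. Levels in HSA/day 10 are therefore given by library, and the ratios of key genes with and without replicate 3.

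The same library was low in markers of stellate cells and fibroblasts. The list had 10 genes, 9 of them matched (PDGFRA, PDGFRB, COL1A1, COL1A2, COL3A1, LUM, DCN, RGS5 and SPON1), and 2 of these, COL1A1 and LUM, are among the 111. Their summed level was 5482, 6103, 1129.5 and 5963 CPM in HSA/day 10, 1027, 676, 670.0 and 1284 CPM in fetuin-A and 2655, 2988, 1889 and 3605 CPM in HSA + SB. It was 5842, 5030.5, 8800.0 and 8241 CPM in HSA/day 6, 6254, 5491, 3779.7 and 4919.5 CPM in HSA + LDN and 3366, 3548, 2963 and 3639 CPM in HSA + SB + LDN. HSA/day 10 replicate 3 thus lay among the fetuin-A libraries, and the sums of all 4 HSA + SB + LDN libraries lay below those of all 4 HSA + LDN libraries. Gene by gene, only 5 of the 9 were lower in HSA + SB + LDN than in HSA + LDN. Their median log2 fold change over the 9 was −0.25, and edgeR called 0 of them, where 1.21% of all tested genes were called lower. COL3A1 was the most abundant of the 9 in every group, with means from 213 CPM in fetuin-A to 2556 CPM in HSA/day 6, and none of the 9 had a group mean of 0. In these bulk libraries, fewer cells of a type and less RNA per cell cannot be told apart, and the part of stellate cell numbers in the results was not tested.

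Within the choice itself, the edgeR log2 fold change had a median of −1.84 over the 111 genes for fetuin-A against HSA/day 10, with a range from −3.82 to −0.97. For HSA + SB against HSA/day 10 the median was −1.77, with a range from −6.75 to −0.9996. These fits called 103 of the 111 lower with fetuin-A, where 17.3% of all tested genes were called lower, and 75 lower with HSA + SB, where the share of all tested genes was 3.79%. Nothing is read from these counts, since the same libraries chose the genes. All 4 fetuin-A libraries lay below all 4 HSA/day 10 libraries for 34 of the genes (16.9% of all genes at 1 CPM or more), and below the 3 HSA/day 10 libraries other than replicate 3 for 94 (21.8%). For HSA + SB these counts were 48 (5.71%) and 94 (9.21%). Just inside the fetuin-A limit were FHOD3, a formin of the actin cytoskeleton, with a ratio of −1.01, and BNC2, a zinc finger protein, with −1.01, and just outside were CAMK1G with −0.998 and SLPI with −0.98. Just inside the SB limit were RGS16 (−1.01), which shortens G-protein signals, and ANTXR1 (−1.001), a collagen-binding receptor, and just outside were PPY and ANXA10, both −0.99. The lowest of the highest group means were those of ANGPT4, 1.06 CPM, and TP63, 1.2203 CPM, and no gene met both ratios below 1 CPM.

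**Figure D1:**
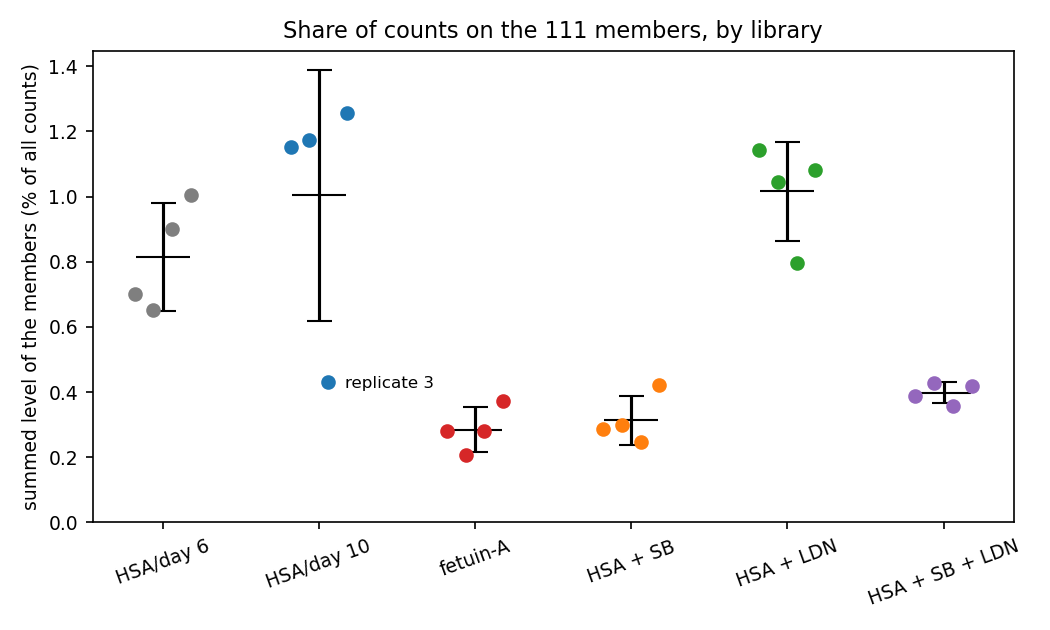
Percent of the counts of each library held by the 111 genes, by group, with 1 point per library, 4 per group, and a bar at the mean. The HSA/day 10 libraries lie at 1.15, 1.18, 0.431 and 1.26%, and the HSA + SB + LDN libraries, from 0.356 to 0.429%, lie below the HSA + LDN libraries, from 0.797 to 1.14%.

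Whether SB431542 lowered these genes in other libraries was asked with HSA + SB + LDN against HSA + LDN. Neither group entered the ratios, although the cells may come from the same preparations. The 111 genes held 1.14, 1.05, 0.797 and 1.08% of the counts in the HSA + LDN libraries and 0.389, 0.429, 0.356 and 0.420% in the HSA + SB + LDN libraries. The groups did not overlap. The log2 fold change was negative for 110 of the 111, with a median of −1.32 and a range from −5.07 to 0.11, beside a median of 0.00 over all 14842 tested genes. CYP1A1 was the exception. In edgeR's quasi-likelihood test with Benjamini-Hochberg adjustment over the 14842 genes, called the edgeR adjusted p from here on, 39 of the 111 (35.1%) fell at the 0.05 level, against 1.21% of all tested genes. With a log2 fold change below −1 as well, 38 were called (34.2%), against 0.586%. All 4 HSA + SB + LDN libraries lay below all 4 HSA + LDN libraries for 81 of the 111 (73.0%), against 5.80% of all genes at 1 CPM or more.

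The number called depended on single libraries. It was 21 without HSA + SB + LDN replicate 1, 21 without replicate 3 and 22 without replicate 4, and 52 when HSA/day 10 replicate 3 was left out of the fit that estimates the spread. The shares of all tested genes called in these fits are not given. Of the 154 genes chosen without that library, 46 fell, with a median log2 fold change of −1.17. The HSA + LDN libraries were close to HSA/day 10 for the 111 genes, with a median log2 fold change of 0.03 between them, and HSA + LDN replicate 3 was the lowest of its group for 56 of the 111 (50.5%). The share of all genes lowest in that library is not given, so nothing is read from this count.

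**Figure D2:**
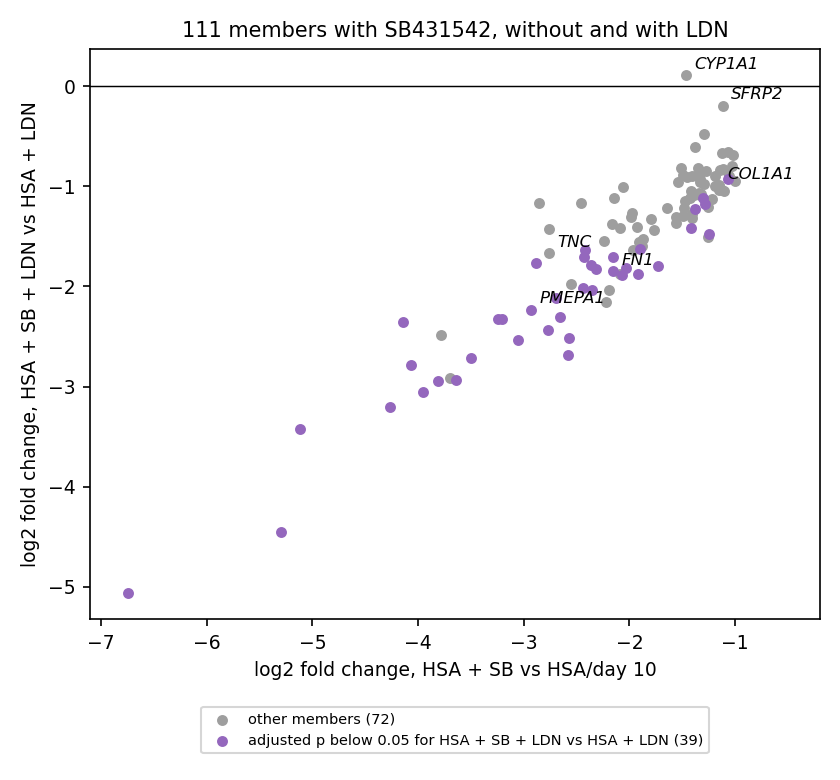
Log2 fold change of the 111 genes in HSA + SB over HSA/day 10 (x axis, used to choose the genes) and in HSA + SB + LDN over HSA + LDN (y axis). Each point is 1 gene, and the 39 genes that fell at an edgeR adjusted p below 0.05 on the y axis are coloured; 110 points lie below 0 on the y axis.

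The largest role was structural matrix, with 22 of the 111 genes. Roles were assigned by hand after the values had been seen, and 66 of the genes have 1. In HSA + SB + LDN against HSA + LDN, 11 of the 22 matrix genes fell, beside 1.21% of all tested genes and 35.1% of the 111, and their median log2 fold change was −1.65. Counts by role are a description and are to be set beside these 2 shares. Fibronectin and the minor collagens of types V, VIII and XVI fell, and the fibrillar collagen gene COL1A1 was lower without passing the test. FN1, which encodes the fibronectin on which cells adhere and other matrix assembles, measured 2286, 1811, 1481 and 2006 CPM in HSA + LDN and 576, 471, 474 and 564 CPM in HSA + SB + LDN. Its levels with SB431542 did not overlap those without it (log2 fold change −1.85, SE 0.35, edgeR adjusted p = 0.00793). In the libraries that chose it, FN1 was at 2037, 2265, 527 and 2406 CPM in HSA/day 10, 542, 272, 326 and 560.4 CPM in fetuin-A and 419, 296, 284 and 624 CPM in HSA + SB. The third HSA/day 10 library was thus within the range of both treated groups, and the log2 ratios were −2.09 and −2.16 with it and −2.39 and −2.46 without it.

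COL5A1, a chain of the collagen that sets the width of fibrils, was at 537, 412, 389 and 561 CPM in HSA + LDN and at 221, 199.9, 181 and 231 CPM in HSA + SB + LDN. Every library with SB431542 was lower, and the fall was called in the full fit (log2 fold change −1.17, SE 0.28, edgeR adjusted p = 0.0319). The adjusted p was 0.0507 to 0.105 without HSA + LDN replicates 1, 2 or 4 or HSA + SB + LDN replicates 1, 2, 3 or 4, each left out alone. COL16A1 encodes a collagen that sits on the surface of fibrils. It measured 235, 252, 228 and 335 CPM in HSA + LDN and 74.3, 97.9, 76.7 and 68.9 CPM in HSA + SB + LDN. These ranges were far apart (log2 fold change −1.71, SE 0.21, edgeR adjusted p = 0.000115). COL8A1 and COL8A2 encode the chains of a short-chain collagen of vessel walls and basement membranes. COL8A1 was at 27.8, 35.1, 21.0 and 38.0 CPM in HSA + LDN and at 2.05, 1.86, 2.67 and 4.71 CPM in HSA + SB + LDN (log2 fold change −3.42, SE 0.58, edgeR adjusted p = 0.0029). COL8A2 was at 11.6, 8.60, 5.80 and 12.4 CPM and at 0.536, 0.190, 0.191 and 0.810 CPM (log2 fold change −4.46, SE 0.73, edgeR adjusted p = 0.00232). Neither gene had a library with SB431542 near any library without it. In the choosing libraries COL8A2 was at 10.0, 11.5, 0.898 and 15.9 CPM in HSA/day 10, 0.876, 0.810, 0.701 and 4.201 CPM in fetuin-A and 0.0821, 0.307, 0.189 and 0.395 CPM in HSA + SB, and the third HSA/day 10 library was at the level of fetuin-A.

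COL1A1, the main chain of type I collagen, measured 1506, 1341, 997 and 1450.2 CPM in HSA + LDN and 617, 686, 571 and 772 CPM in HSA + SB + LDN. All 4 libraries with SB431542 were lower, but the difference did not pass the test (log2 fold change −0.99, SE 0.42, edgeR adjusted p = 0.294). In HSA/day 10 it was at 1323, 1537, 205 and 1903 CPM, in fetuin-A at 178, 124, 124 and 297 CPM and in HSA + SB at 472, 616, 323 and 818 CPM. The HSA + SB libraries all lay above the fetuin-A libraries, and the third HSA/day 10 library lay below every HSA + SB library. Its ratios were −2.78 for fetuin-A and −1.16 for SB, and −3.13 and −1.51 without that library. BGN encodes the small proteoglycan biglycan. It was at 417, 397, 277 and 357 CPM in HSA + LDN and at 167, 167, 135 and 178 CPM in HSA + SB + LDN, which did not overlap (log2 fold change −1.15, SE 0.39, edgeR adjusted p = 0.164); the call was made when HSA/day 10 replicate 3 was left out of the fit (adjusted p = 0.013) and in the fit of the 2 groups alone. LUM, which encodes the fibril-spacing proteoglycan lumican, was at 255, 180.1, 76.3 and 71.9 CPM and at 81.5, 102, 50.3 and 52.3 CPM, and here the groups overlapped (log2 fold change −1.01, SE 0.55, edgeR adjusted p = 0.436).

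Matricellular proteins, which modulate how cells read the matrix, were also in the list. THBS2, an inhibitor of vessel growth, measured 169, 269.6, 62.4 and 140.0 CPM in HSA + LDN and 15.5, 34.2, 9.07 and 24.3 CPM in HSA + SB + LDN. The groups did not overlap despite the wide range in HSA + LDN (log2 fold change −2.93, SE 0.63, edgeR adjusted p = 0.0192). The adjusted p was 0.052 to 0.076 without HSA + LDN replicate 2 or HSA + SB + LDN replicates 1, 3 or 4. TNC, tenascin C of growing and repairing tissue, was at 267, 136, 312 and 335 CPM and at 68.9, 54.3, 128 and 75.9 CPM. All libraries with SB431542 were lower, and the test was just missed (log2 fold change −1.67, SE 0.44, edgeR adjusted p = 0.058), while the adjusted p was 0.0462 without HSA + LDN replicate 2 and 0.00482 in DESeq2. POSTN, periostin, which helps to cross-link collagen, was at 131, 195, 57.6 and 125 CPM and at 47.2, 53.4, 35.7 and 68.1 CPM. The highest library with SB431542 exceeded the lowest without it (log2 fold change −1.30, SE 0.48, edgeR adjusted p = 0.202). SRPX2, a secreted sushi-repeat protein, was at 7.23, 10.7, 6.37 and 5.83 CPM and at 1.61, 2.62, 1.29 and 1.32 CPM. It fell with no overlap (log2 fold change −2.12, SE 0.35, edgeR adjusted p = 0.00235).

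Genes that make, link or take up matrix formed a second set of 9, of which 4 fell in HSA + SB + LDN against HSA + LDN, namely HAS2, TNFAIP6, MRC2 and LOXL1; of these, HAS2, MRC2 and LOXL1 were chosen after their values were seen. The median log2 fold change of the 9 was −1.52. HAS2, which synthesises hyaluronan, measured 4.53, 3.22, 2.74 and 4.24 CPM in HSA + LDN and 0.439, 0.809, 0.334 and 0.659 CPM in HSA + SB + LDN. It was below 1 CPM in every library with SB431542 and above it in every library without (log2 fold change −2.69, SE 0.51, edgeR adjusted p = 0.00747). TNFAIP6 encodes a protein that links proteins to hyaluronan. It was at 11.7, 11.9, 9.29 and 9.64 CPM and at 2.24, 3.43, 2.77 and 3.39 CPM, again without overlap (log2 fold change −1.83, SE 0.31, edgeR adjusted p = 0.00273). MRC2, a receptor that takes up collagen fragments, was at 177, 151, 100.1 and 139.6 CPM and at 32.4, 49.8, 14.8 and 14.6 CPM (log2 fold change −2.33, SE 0.48, edgeR adjusted p = 0.0129). Its adjusted p was 0.052 to 0.0574 without HSA + SB + LDN replicates 3 or 4. LOXL1, which cross-links elastin, was at 7.19, 5.68, 7.17 and 10.0 CPM and at 2.39, 1.14, 2.58 and 2.48 CPM (log2 fold change −1.79, SE 0.41, edgeR adjusted p = 0.0284), and the call was lost, with an adjusted p of 0.062 to 0.0951, without HSA + LDN replicates 1 or 4 or HSA + SB + LDN replicates 1, 2, 3 or 4.

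**Figure D3:**
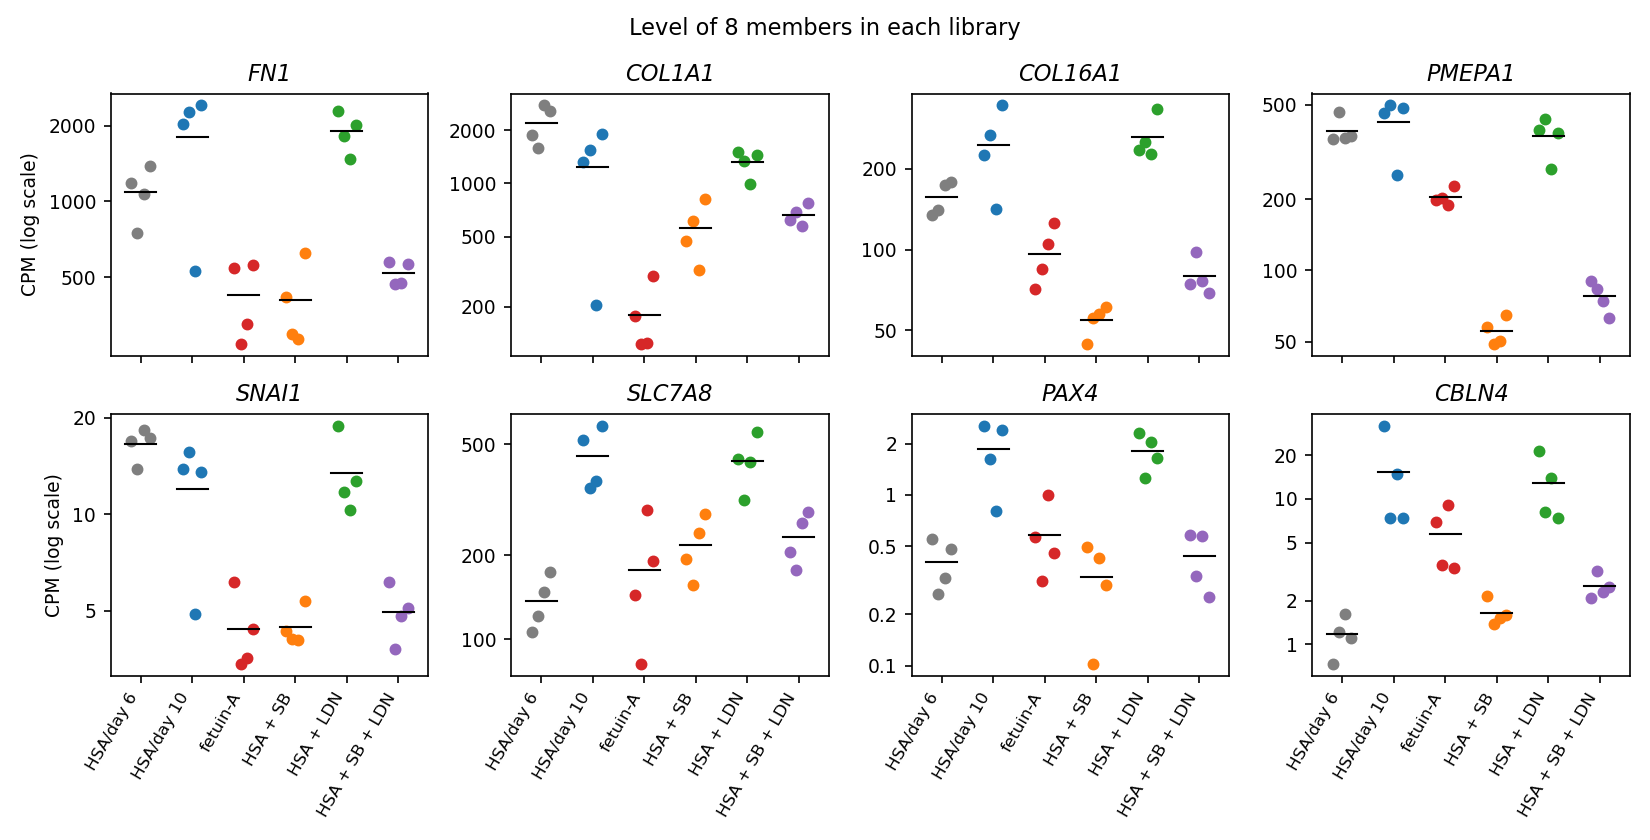
Levels of 8 of the genes in CPM (log axis) in the 24 libraries, by group, with 1 point per library. For each of the 8 genes all HSA + SB + LDN libraries lie below all HSA + LDN libraries.

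TGF-β family genes numbered 5, and 2 of them fell, PMEPA1 and SNAI1 (median log2 fold change of the 5, −1.41). PMEPA1, a target of the pathway that also dampens it at the SMAD step, had the smallest p of all 111 genes. It measured 392, 438, 268 and 382 CPM in HSA + LDN and 90.5, 83.7, 74.4 and 62.8 CPM in HSA + SB + LDN. Even the lowest library without SB431542 was far above the highest with it (log2 fold change −2.23, SE 0.19, edgeR adjusted p = 8.3e-07). In HSA/day 10 PMEPA1 was at 464, 498, 252 and 487 CPM, in fetuin-A at 199, 203, 189 and 226 CPM and in HSA + SB at 57.7, 49.0, 50.3 and 65.1 CPM. Fetuin-A libraries lay between the other groups, and the log2 ratios were −1.06 for fetuin-A and −2.92 for SB (−1.24 and −3.11 without HSA/day 10 replicate 3). SNAI1 encodes a repressor of epithelial genes that TGF-β induces. It was at 18.9, 11.7, 10.3 and 12.7 CPM in HSA + LDN and at 6.14, 3.81, 4.82 and 5.12 CPM in HSA + SB + LDN, with no overlap (log2 fold change −1.41, SE 0.27, edgeR adjusted p = 0.0083). In the choosing groups it was at 13.8, 15.6, 4.89 and 13.6 CPM in HSA/day 10, 6.13, 3.42, 3.55 and 4.40 CPM in fetuin-A and 4.31, 4.10, 4.07 and 5.38 CPM in HSA + SB. Only replicate 3 of HSA/day 10 reached down to the treated libraries, and the ratios were −1.35 and −1.33 with it and −1.60 and −1.58 without it. ENG, endoglin, an accessory receptor, was at 139, 141, 75.2 and 97.4 CPM in HSA + LDN and at 56.7, 62.6, 41.8 and 44.8 CPM in HSA + SB + LDN. The groups were separate but the test was not passed (log2 fold change −1.12, SE 0.29, edgeR adjusted p = 0.0584). The adjusted p was 0.00351 to 0.0419 without HSA/day 10 replicate 3 or HSA + LDN replicate 3, and 0.00832 in DESeq2. FSTL1, a secreted follistatin-like glycoprotein, is among the 111 genes but not among these 5. It was at 375, 281, 222 and 303 CPM and at 172, 146, 149.9 and 186 CPM, separate but not called (log2 fold change −0.84, SE 0.30, edgeR adjusted p = 0.196).

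Beside these genes stood the wider pathway. Of 43 listed genes of the TGF-β receptor-SMAD2/3 pathway and its known targets, 40 were tested, and 4 are among the 111 (PMEPA1, ENG, SNAI1 and POSTN). In HSA + SB + LDN against HSA + LDN, 11 of the 40 fell and 1, MYC, rose, against 1.21% and 0.532% of all tested genes, and the median was −0.32. With fetuin-A against HSA/day 10, 12 of the 40 were called lower and 7 higher, where 17.3% and 18.3% of all tested genes were, and with HSA + SB 19 were called lower and 2 higher (INHBB and MYC), where 3.79% and 3.34% were. The count of 11 was 6 without HSA + LDN replicate 1, 2 or 4 or HSA + SB + LDN replicate 3, and 7 without HSA + SB + LDN replicate 1 or 4. SMAD7, SKIL and INHBA, named after their values were seen, fell as well. SMAD7, the inhibitory SMAD, was at 15.6, 15.9, 8.68 and 11.2 CPM in HSA + LDN and at 2.78, 3.14, 2.10 and 1.72 CPM in HSA + SB + LDN (log2 fold change −2.38, SE 0.30, edgeR adjusted p = 0.000138). SKIL, a repressor of SMAD targets, was at 85.4, 75.2, 62.8 and 88.8 CPM and at 27.3, 30.9, 25.8 and 26.3 CPM (log2 fold change −1.48, SE 0.11, edgeR adjusted p = 2.53e-07). INHBA, the activin A subunit, was at 43.6, 45.0, 43.8 and 55.3 CPM and at 7.02, 5.38, 6.78 and 10.4 CPM (log2 fold change −2.66, SE 0.23, edgeR adjusted p = 8.3e-07). In none of them did the groups overlap. SKIL and SMAD7 are outside the 111 genes on the fetuin-A side. SKIL measured 96.0, 91.8, 73.4 and 96.0 CPM in HSA/day 10, 89.4, 72.8, 84.3 and 85.1 CPM in fetuin-A and 19.8, 18.02, 19.3 and 25.0 CPM in HSA + SB. SMAD7 measured 22.4, 19.1, 9.83 and 17.2 CPM, 14.3, 12.7, 11.6 and 11.8 CPM and 3.37, 2.25, 1.75 and 2.61 CPM in these groups. For both, fetuin-A libraries overlapped HSA/day 10 and HSA + SB libraries lay below them all. MYC, a growth-promoting transcription factor, was at 36.2, 32.9, 34.5 and 30.8 CPM in HSA + LDN and at 51.1, 52.9, 45.1 and 54.8 CPM in HSA + SB + LDN (log2 fold change 0.62, SE 0.14, edgeR adjusted p = 0.0212), and its adjusted p was 0.053 to 0.0783 without HSA + LDN replicates 2 or 4 or HSA + SB + LDN replicates 1, 2 or 4.

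Of 19 tested BMP pathway genes, which signal through other SMADs, 1 fell in HSA + SB + LDN against HSA + LDN. This was BMPR2 (log2 fold change −0.26, edgeR adjusted p = 0.0101). Of all tested genes 1.21% fell. At an unadjusted p below 0.05, 6 of the 19 were lower and 1 was higher, where 2031 of all 14842 tested genes were lower or higher. Of 46 tested genes on the extracellular matrix list, 12 are among the 111. In the same comparison 8 of the 46 fell, again beside 1.21%, with a median of −0.68. Without 1 library this count moved to 3 without HSA + SB + LDN replicate 1, 3 or 4, to 4 without its replicate 2 or HSA + LDN replicate 1 or 4, to 5 without HSA + LDN replicate 2, and to 12 when HSA/day 10 replicate 3 was left out of the fit. With fetuin-A against HSA/day 10, 28 of the 46 were called lower and 4 higher (CCN1, CCN2, LOX and ITGB3), where 17.3% and 18.3% of all tested genes were. With HSA + SB, 17 were called lower, where 3.79% of all genes were called lower and 3.34% higher. These 2 comparisons chose the 111 genes, 12 of the 46 among them, so nothing is read from these counts or from those of the TGF-β pathway.

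Secreted Wnt inhibitors and the Wnt effector LEF1 made a set of 4, and SFRP1 and LEF1, both chosen after their values were seen, fell in HSA + SB + LDN against HSA + LDN. SFRP1, which binds Wnt ligands outside the cell, measured 298, 292, 199 and 228 CPM in HSA + LDN and 66.3, 109, 37.5 and 58.8 CPM in HSA + SB + LDN (log2 fold change −1.89, SE 0.46, edgeR adjusted p = 0.0374). LEF1, the nuclear partner of β-catenin, measured 7.76, 4.68, 6.37 and 8.37 CPM and 2.68, 1.71, 1.62 and 3.65 CPM (log2 fold change −1.48, SE 0.35, edgeR adjusted p = 0.0352). For both genes all libraries with SB431542 were lower, but the calls were lost without any 1 of 6 libraries. Over the fits with 1 library left out, the log2 fold change was −2.22 to −1.69 for SFRP1 and −1.73 to −1.33 for LEF1. The adjusted p of SFRP1 was 0.0715 to 0.129 without HSA + LDN replicates 1, 2 or 4 or HSA + SB + LDN replicates 1, 3 or 4, and that of LEF1 0.0551 to 0.121 without HSA + LDN replicates 1, 3 or 4 or HSA + SB + LDN replicates 1, 2 or 3. SFRP2, a relative of SFRP1, was not called. It was at 100.2, 80.5, 7.05 and 129.6 CPM in HSA/day 10, 9.59, 5.53, 4.41 and 23.2 CPM in fetuin-A and 31.9, 41.6, 24.6 and 47.8 CPM in HSA + SB. Here the HSA + SB libraries lay above every fetuin-A library, and HSA/day 10 replicate 3 lay below every HSA + SB library. With LDN the difference was small and the groups overlapped, with 109, 62.7, 47.6 and 110.1 CPM in HSA + LDN and 77.2, 72.1, 71.7 and 63.8 CPM in HSA + SB + LDN (log2 fold change −0.19, SE 0.54, edgeR adjusted p = 0.921).

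Transcription factors of mesenchymal cells numbered 4. FOXS1, a forkhead factor of perivascular cells named after its values were seen, was the 1 that fell. It was at 10.7, 9.66, 10.2 and 11.7 CPM in HSA + LDN and at 4.49, 4.52, 4.53 and 4.25 CPM in HSA + SB + LDN, both narrow ranges (log2 fold change −1.23, SE 0.27, edgeR adjusted p = 0.023), and its adjusted p was 0.053 to 0.068 without HSA + LDN replicates 1 or 4 or HSA + SB + LDN replicates 1, 2, 3 or 4. PRRX2 of the limb and connective tissue was at 5.16, 8.20, 3.02 and 6.46 CPM and at 1.66, 2.95, 1.43 and 1.87 CPM (log2 fold change −1.51, SE 0.41, edgeR adjusted p = 0.0677), and the adjusted p was 0.0127 to 0.0426 without HSA/day 10 replicate 3 or without HSA + LDN replicate 3 and 0.0118 in DESeq2. BNC2 was at 5.30, 5.43, 3.68 and 5.77 CPM and at 1.80, 3.05, 2.43 and 4.10 CPM (log2 fold change −0.81, SE 0.40, edgeR adjusted p = 0.388). PRRX2 was separated between the groups and BNC2 was not. The 4 adhesion genes, ITGA11, CDH11, ANTXR1 and CLMP, had a median log2 fold change of −1.17. EdgeR called 0 of the 4 and DESeq2 3. The share of all genes called by DESeq2 is not given, so nothing is read from its count. At an unadjusted p below 0.05, 4 were lower, where 2031 of all 14842 tested genes were lower or higher. ANTXR1 was at 233, 255, 135 and 178 CPM in HSA + LDN and at 89.2, 135, 81.7 and 106 CPM in HSA + SB + LDN. The groups were separate and the gene was not called (log2 fold change −0.95, SE 0.28, edgeR adjusted p = 0.102). The adjusted p was 0.022 without HSA/day 10 replicate 3 and 0.0287 in DESeq2.

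In a set of 6 endocrine or neural genes, PAX4, CBLN4 and PLXNA4 fell in HSA + SB + LDN against HSA + LDN (median of the 6, −1.92), and all 3 were chosen after their values were seen. PAX4 is a transcription factor needed for the beta cell lineage. It measured 2.31, 1.26, 2.03 and 1.64 CPM in HSA + LDN and 0.585, 0.333, 0.573 and 0.253 CPM in HSA + SB + LDN. Every library without SB431542 was above 1 CPM and every library with it was below (log2 fold change −2.02, SE 0.42, edgeR adjusted p = 0.0147), and the adjusted p was 0.0541 to 0.059 without HSA + LDN replicate 1 or HSA + SB + LDN replicate 4. In HSA/day 10 PAX4 was at 2.55, 1.63, 0.808 and 2.41 CPM, in fetuin-A at 0.570, 0.315, 1.001 and 0.456 CPM and in HSA + SB at 0.493, 0.102, 0.426 and 0.296 CPM, and its lowest value in HSA/day 10 was again replicate 3. CBLN4, a secreted cerebellin that organises synapses, was at 21.5, 8.15, 14.0 and 7.41 CPM in HSA + LDN and at 2.10, 3.19, 2.29 and 2.48 CPM in HSA + SB + LDN (log2 fold change −2.33, SE 0.45, edgeR adjusted p = 0.00827). The highest library with SB431542 was well below the lowest without it. In the choosing groups it was at 32.0, 7.42, 14.9 and 7.44 CPM in HSA/day 10, 6.97, 3.51, 9.11 and 3.34 CPM in fetuin-A and 2.14, 1.38, 1.51 and 1.58 CPM in HSA + SB, so that fetuin-A overlapped HSA/day 10 and HSA + SB did not. PLXNA4, a semaphorin receptor, was at 30.9, 21.9, 23.7 and 45.3 CPM and at 6.29, 9.23, 7.54 and 11.2 CPM (log2 fold change −1.82, SE 0.37, edgeR adjusted p = 0.0121), with an adjusted p of 0.0511 to 0.0577 without HSA + LDN replicate 4 or HSA + SB + LDN replicates 1 or 3.

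Beside these endocrine genes, none of 36 tested genes for beta cell identity and insulin secretion was called by edgeR in HSA + SB + LDN against HSA + LDN, and none is among the 111. DESeq2 called 0, and 2 were lower at an unadjusted p below 0.05, where 2031 of all 14842 tested genes were lower or higher. The median was −0.29, and 32 of the 36 were negative, beside 7355 of all tested genes. In fetuin-A against HSA/day 10, 27 of the 36 were called lower, where 17.3% of all tested genes were, with a median of −1.55, and in HSA + SB against HSA/day 10, 1 of the 36, GIPR, against 3.79%, with a median of −0.31. Of the 36, 35 were negative with fetuin-A and 29 with HSA + SB, beside 7347 and 7271 of all tested genes. The cell cycle list of 20 tested genes had medians of 0.16, −2.05 and 0.08 in these comparisons, with 19 called lower in fetuin-A (again beside 17.3%).

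Transport and metabolism genes, including vitamin A and D handling, numbered 12, and LIPG and VDR fell in HSA + SB + LDN against HSA + LDN (median of the 12, −1.12). LIPG, endothelial lipase, measured 7.47, 9.11, 10.1 and 10.96 CPM in HSA + LDN and 2.29, 2.86, 1.67 and 2.28 CPM in HSA + SB + LDN, without overlap (log2 fold change −2.03, SE 0.28, edgeR adjusted p = 0.00039). VDR, the vitamin D receptor, chosen after its values were seen, was at 19.9, 22.7, 17.9 and 19.9 CPM and at 7.56, 10.3, 10.9 and 7.75 CPM, both narrow and separate (log2 fold change −1.12, SE 0.21, edgeR adjusted p = 0.00741). SLC7A8, a transporter of large neutral amino acids, was at 444, 315, 431 and 555 CPM and at 206, 178, 260.1 and 287 CPM. The groups did not overlap, and the test was not passed (log2 fold change −0.90, SE 0.28, edgeR adjusted p = 0.122). In the choosing groups SLC7A8 was at 516, 349, 369 and 584 CPM in HSA/day 10, 144, 81.5, 290.0 and 190.2 CPM in fetuin-A and 195, 156, 241 and 282 CPM in HSA + SB, and this was a gene for which the third HSA/day 10 library was near the others. CYP1A1, a detoxifying cytochrome induced through the aryl hydrocarbon receptor, was at 87.7, 151, 113 and 72.1 CPM in HSA + LDN and at 65.9, 293, 58.8 and 33.4 CPM in HSA + SB + LDN. The second HSA + SB + LDN library was far above the other 3, and the groups overlapped (log2 fold change 0.11, SE 0.65, edgeR adjusted p = 0.968). Its log2 fold change was −0.99 without that library and −0.03 without HSA + LDN replicate 4.

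Some of the clearest differences were in genes with no role assigned or no symbol. ENSSSCG00000011596 measured 224, 315, 117 and 62.6 CPM in HSA + LDN and 7.95, 8.04, 1.38 and 3.75 CPM in HSA + SB + LDN. All libraries with SB431542 were below 10 CPM and all without it above 60 CPM, the lowest log2 fold change of the 111 genes (log2 fold change −5.07, SE 0.64, edgeR adjusted p = 0.000138). In the choosing groups it was at 595, 426, 107 and 126 CPM in HSA/day 10, 42.6, 32.1, 53.8 and 40.4 CPM in fetuin-A and 3.29, 2.51, 1.61 and 4.24 CPM in HSA + SB, which were 3 separate ranges with ratios of −2.88 and −6.52. ENSSSCG00000011355 was at 449.8, 282, 233 and 398 CPM in HSA + LDN and at 63.1, 57.7, 47.7 and 64.6 CPM in HSA + SB + LDN (log2 fold change −2.53, SE 0.40, edgeR adjusted p = 0.00161). ENSSSCG00000029199 was at 21.7, 10.5, 12.2 and 8.31 CPM and at 1.80, 1.71, 1.38 and 1.37 CPM (log2 fold change −3.05, SE 0.46, edgeR adjusted p = 0.00106). UPK3A, a uroplakin, was at 4.48, 2.82, 3.49 and 4.24 CPM and at 0.780, 0.619, 0.573 and 0.608 CPM (log2 fold change −2.52, SE 0.34, edgeR adjusted p = 0.00028). None of these 4 genes had overlapping groups. CXCL14, a chemokine chosen after its values were seen, was at 136, 362, 76.0 and 86.9 CPM and at 21.0, 58.6, 8.93 and 10.0 CPM (log2 fold change −2.72, SE 0.66, edgeR adjusted p = 0.0374), and replicate 2 was the highest in both groups. Its adjusted p was 0.0674 to 0.156 without HSA + LDN replicates 1 or 2 or HSA + SB + LDN replicates 1, 3 or 4. Of the 45 genes in no role, 14 fell, to be set beside 35.1% of the 111 genes and 1.21% of all tested genes.

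Other genes were lower without being called, with or without overlap of the groups. ENSSSCG00000010056 was at 209.8, 302, 72.0 and 76.0 CPM in HSA + LDN and at 135, 192, 44.6 and 36.1 CPM in HSA + SB + LDN (log2 fold change −0.67, SE 0.68, edgeR adjusted p = 0.732). HAPLN1, which ties proteoglycans to hyaluronan, was at 5.74, 6.99, 6.98 and 17.4 CPM and at 2.83, 6.57, 5.16 and 9.57 CPM (log2 fold change −0.61, SE 0.55, edgeR adjusted p = 0.691), and in both the groups overlapped. Taken by replicate number, both genes were lower with SB431542 within every number. The fit was unpaired, and a difference by number was not tested. RGS4, a brake on G-protein signals, was at 211, 199, 289 and 300.5 CPM and at 124, 134, 185 and 185 CPM (log2 fold change −0.66, SE 0.31, edgeR adjusted p = 0.357). It was highest of its group in the third HSA/day 10 library (225, 207, 376 and 281 CPM in HSA/day 10), and its ratios of −1.06 and −1.07 became −0.87 and −0.87 without that library, outside both limits. RGS16, of the same family, was at 40.6, 53.8, 50.5 and 55.5 CPM and at 21.1, 31.5, 34.7 and 36.5 CPM (log2 fold change −0.68, SE 0.23, edgeR adjusted p = 0.147). In these 2 genes, and in the 3 that follow, all libraries with SB431542 were below all without it. FHOD3 was at 39.7, 36.7, 55.6 and 53.2 CPM and at 21.5, 19.99, 32.8 and 29.3 CPM (log2 fold change −0.82, SE 0.22, edgeR adjusted p = 0.0705). TP63, the epithelial transcription factor, was at 1.16, 1.31, 1.13 and 1.17 CPM and at 0.585, 0.571, 0.811 and 0.101 CPM (log2 fold change −1.17, SE 0.37, edgeR adjusted p = 0.131). ANGPT4, an angiopoietin, was at 1.88, 0.503, 0.708 and 0.847 CPM and at 0.0975, 0.476, 0.0477 and 0.0507 CPM (log2 fold change −2.48, SE 0.66, edgeR adjusted p = 0.0616), and the second library with SB431542 stood above the other 3. The adjusted p of ANGPT4 was 0.0139 to 0.027 without HSA/day 10 replicate 3 or HSA + SB + LDN replicate 2, and 0.0188 in DESeq2.

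How the genes stood before maturation was asked with HSA/day 6 and HSA + LDN. The HSA/day 10 libraries are not in this comparison, but they entered the fit that estimates the spread. From HSA/day 6 to HSA + LDN, more of the genes were higher than lower. Over the 111 genes the median log2 fold change was 0.71 and 87 were positive, beside a median of −0.01 over all tested genes. At an edgeR adjusted p below 0.05, 49 rose (44.1%), where 20.1% of all tested genes rose, and 1, TNC, fell, where 20.2% of all tested genes fell. Of the 12 transport and metabolism genes, 9 rose, with a median of 1.56, and the median of the 22 matrix genes was 0.24. Of the 45 genes in no role, 26 rose. Other lists are given for the same comparison. Of the 36 genes for beta cell identity and insulin secretion, 30 rose (median 2.00), and of the 20 cell cycle genes 18 (median 0.94). The medians of 6 tested acinar markers and of the 9 stellate and fibroblast markers were −1.31 and −0.20. The part of these cell types in the change was not tested. Without LDN, from HSA/day 6 to HSA/day 10, the median of the 111 genes was 0.72 and 85 were positive, which is a description, since the HSA/day 10 libraries chose the genes. Within the comparison with HSA + LDN alone, time and LDN cannot be told apart.

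CBLN4 was at 0.734, 1.219, 1.62 and 1.11 CPM in HSA/day 6, below every HSA + LDN library (log2 fold change 3.37, SE 0.48, edgeR adjusted p = 2.77e-05). PAX4 was at 0.550, 0.261, 0.325 and 0.481 CPM in HSA/day 6 and rose (log2 fold change 2.07, SE 0.42, edgeR adjusted p = 0.000758). ENSSSCG00000011596 was at 27.7, 18.2, 12.5 and 22.4 CPM, also below all HSA + LDN libraries (log2 fold change 3.06, SE 0.57, edgeR adjusted p = 0.00033). These 3 genes thus began low and were lower with SB431542 than without it at the end. SLC7A8 was at 106, 121, 147 and 174 CPM in HSA/day 6 (log2 fold change 1.596, SE 0.28, edgeR adjusted p = 0.000217). UPK3A was at 0.413, 0.827, 0.464 and 0.481 CPM (log2 fold change 2.68, SE 0.35, edgeR adjusted p = 1.07e-05). VDR was at 8.30, 10.0, 9.74 and 10.6 CPM (log2 fold change 0.97, SE 0.21, edgeR adjusted p = 0.00123). All 3 were lower in HSA/day 6 in every library. FHOD3 was at 8.30, 9.01, 12.3 and 15.0 CPM in HSA/day 6 (log2 fold change 1.98, SE 0.23, edgeR adjusted p = 4.79e-06). COL16A1 was at 134, 140.5, 173 and 179 CPM (log2 fold change 0.66, SE 0.21, edgeR adjusted p = 0.0141), and its adjusted p was 0.0638 without HSA + LDN replicate 4. TNC went the other way, with 438, 299, 885 and 929 CPM in HSA/day 6 (log2 fold change −1.35, SE 0.43, edgeR adjusted p = 0.0175), and its adjusted p was 0.0525 to 0.0552 without HSA/day 6 replicates 3 or 4 or HSA + LDN replicate 2. The genes of this and the next paragraph that are named for their change from HSA/day 6 were chosen after their values were seen.

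**Figure D4:**
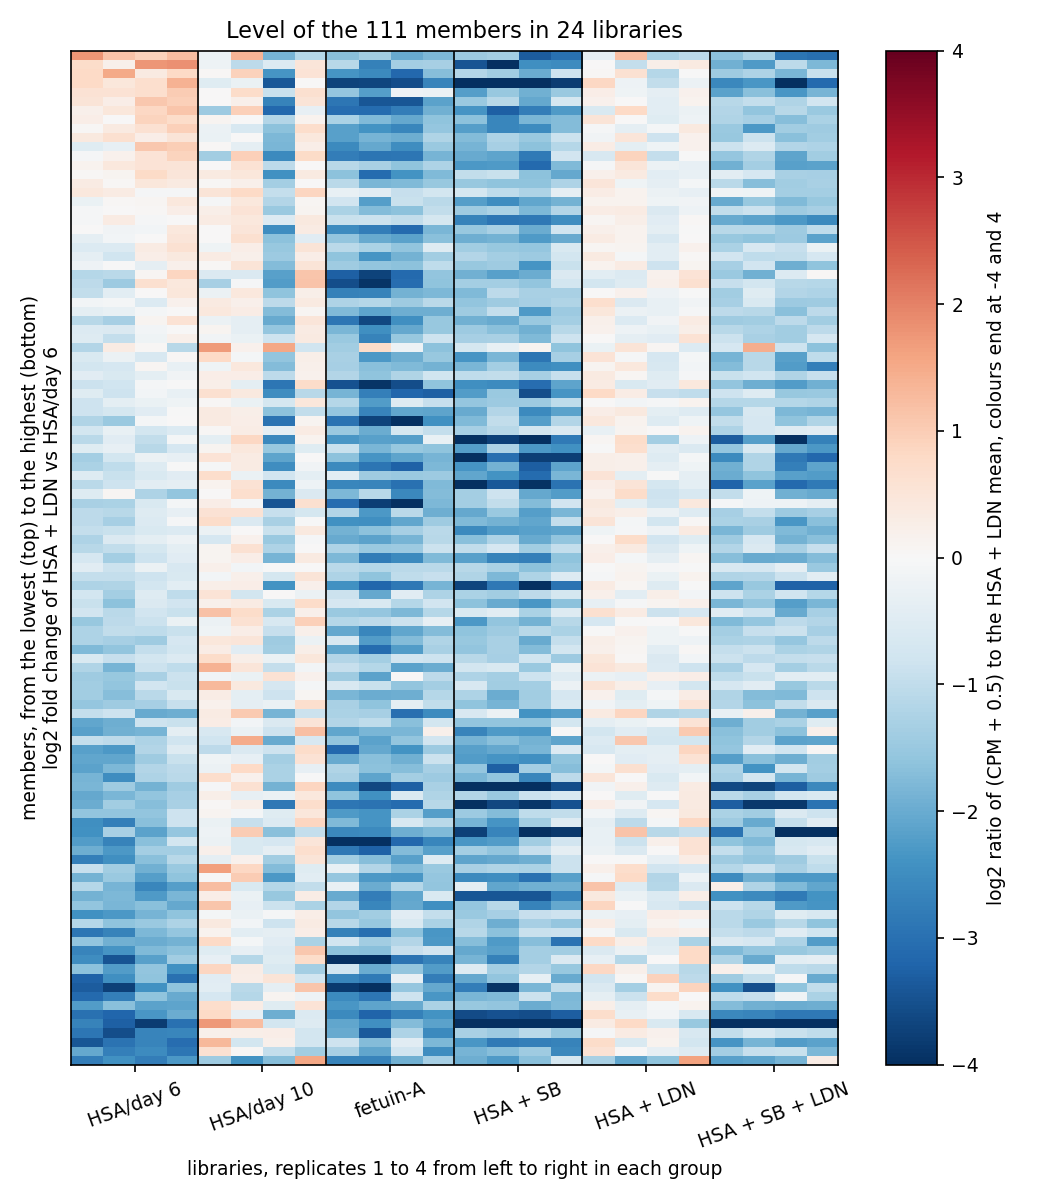
Levels of the 111 genes in the 24 libraries, as the log2 ratio of CPM + 0.5 to the mean of HSA + LDN + 0.5, with 1 line per gene, sorted by the log2 fold change from HSA/day 6 to HSA + LDN, and 1 column per library, by group. HSA/day 10 replicate 3 is the lowest of its group for 88 of the 111 genes.

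With SB431542 and LDN the endpoint can be set against HSA/day 6. The comparisons with HSA + LDN share libraries with it, so the values stand side by side. From HSA/day 6 to HSA + SB + LDN the median log2 fold change of the 111 genes was −0.68, with 74 negative, beside −0.01 over all tested genes. In the test, 43 fell (38.7%), where 17.0% of all tested genes fell, and 6 rose, where 16.3% rose. Of the 22 matrix genes, 17 fell, with a median of −1.68, while the medians of the endocrine or neural and of the transport genes were 0.07 and 0.47.

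FN1 was at 1181, 746, 1066 and 1387 CPM in HSA/day 6, above every HSA + SB + LDN library (log2 fold change −1.14, SE 0.35, edgeR adjusted p = 0.0158). COL1A1 was at 1876, 1582, 2765 and 2571 CPM (log2 fold change −1.80, SE 0.43, edgeR adjusted p = 0.00347). From HSA/day 6 to HSA + LDN, without SB431542, COL1A1 was also lower and FN1 higher, neither called (log2 fold change −0.81 and 0.71, edgeR adjusted p = 0.134 and 0.107). TNC, with the levels given above, fell further (log2 fold change −3.01, SE 0.46, edgeR adjusted p = 7.94e-05). These 3 matrix genes therefore ended below their level at day 6. PMEPA1 was at 358, 469, 361 and 372 CPM in HSA/day 6 (log2 fold change −2.39, SE 0.19, edgeR adjusted p = 9.59e-08). SNAI1 was at 16.9, 13.8, 18.4 and 17.2 CPM (log2 fold change −1.80, SE 0.28, edgeR adjusted p = 7.94e-05). Both TGF-β targets were high at day 6 and in HSA + LDN and low in every HSA + SB + LDN library. ENSSSCG00000011596 also ended below day 6 (log2 fold change −2.01, SE 0.59, edgeR adjusted p = 0.0129), while FHOD3 ended above it (log2 fold change 1.16, SE 0.23, edgeR adjusted p = 0.000816). For FHOD3 the HSA + SB + LDN libraries lay between the other 2 groups.

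Fetuin-A and HSA + SB are last set side by side over the 111 genes. These groups chose the genes, so the values are a description. The median log2 fold change of fetuin-A against HSA + SB was 0.10. All 4 HSA + SB libraries lay below all 4 fetuin-A libraries for 13 of the 111 (11.7%), where 14.5% of all genes at 1 CPM or more did, and all 4 fetuin-A libraries lay below all 4 HSA + SB libraries for 9 (8.11%), where 20.1% did. Both groups had to lie below the same HSA/day 10 mean, so nothing is read from these shares. Lower with SB were, among others, PMEPA1, COL16A1, COL8A2, THBS2, LIPG, CBLN4, CXCL14 and SRPX2. THBS2 was at 31.4, 35.5, 34.6 and 129 CPM in fetuin-A and at 7.35, 11.6, 8.18 and 21.9 CPM in HSA + SB. In HSA/day 10 it was at 122, 284, 26.2 and 178 CPM, so that replicate 3 lay below every fetuin-A library and fetuin-A replicate 4 lay above replicates 1 and 3. COL16A1 was at 71.1, 84.3, 105 and 125 CPM in fetuin-A, 44.6, 55.4, 57.5 and 61.0 CPM in HSA + SB and 225, 267, 142 and 344 CPM in HSA/day 10. Lower with fetuin-A were COL1A1, SFRP2, CDH11, MGP, VDR, SLC7A14, SLC16A9, MARCHF4 and ENSSSCG00000039926. CDH11, a cadherin of mesenchymal cells, was at 15.6, 9.04, 7.36 and 22.7 CPM in fetuin-A and 36.1, 63.3, 26.8 and 55.2 CPM in HSA + SB.

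Markers of other cell types are given because the clusters hold several. Of the 9 matched stellate and fibroblast markers, 9 were called lower with fetuin-A, where 17.3% of all tested genes were, and 1, LUM, with HSA + SB against HSA/day 10, where 3.79% were; LUM and COL1A1 are among the 111 genes that these comparisons chose. With HSA + SB, 7 of the 9 were negative, with a median of −0.80. At an unadjusted p below 0.05, 5 were lower and 1 was higher, where 3238 of all 14842 tested genes were lower or higher. In HSA + SB + LDN against HSA + LDN edgeR called 0 of the 9, DESeq2 0, and 5 were negative, with a median of −0.25. Here 1 was lower at an unadjusted p below 0.05, where 2031 of all tested genes were lower or higher. PDGFRB and RGS5 were the 2 that were positive with HSA + SB. PDGFRB, the receptor of stellate cells and pericytes, was at 294, 292, 80.9 and 304 CPM in HSA/day 10, 102, 87.5, 66.8 and 141 CPM in fetuin-A and 387, 429.7, 306 and 442 CPM in HSA + SB. With LDN it was at 307, 273, 195 and 257 CPM in HSA + LDN and 323, 331, 278 and 387 CPM in HSA + SB + LDN. HSA/day 10 replicate 3 was thus among the fetuin-A libraries, while every HSA + SB library was above every HSA/day 10 library. RGS5, of pericytes, had group means of 104, 36.7 and 126 CPM in the first 3 of these groups and 104 and 117 CPM in the last 2. Contractile markers, 12 of 12 matched and led by TPM2 (mean 51.4 CPM) in HSA + LDN, summed to 123, 198, 70.9 and 258 CPM in HSA/day 10, 107, 130.4, 101 and 178 CPM in fetuin-A and 94.4, 114, 115 and 264 CPM in HSA + SB. In HSA + LDN the sum was 132, 106, 119 and 222 CPM and in HSA + SB + LDN 80.7, 77.6, 97.5 and 188 CPM, so the groups overlapped. Within every replicate number the sum was lower in HSA + SB + LDN, and this was not tested.

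Acinar markers, 7 of 13 matched with CPA1 or CEL the most abundant, summed to 12238, 5275, 5554 and 1462 CPM in HSA + LDN and 18649, 11456, 11780.0 and 3189 CPM in HSA + SB + LDN. In HSA/day 10 the sum was 11855, 4803, 2853 and 936 CPM, in fetuin-A 1927, 895, 845 and 108 CPM, in HSA + SB 12714, 8210.0, 9021 and 2642 CPM and in HSA/day 6 23930.0, 14457, 12651 and 6129 CPM. Endothelial markers, 8 of 10 matched and led by PECAM1, summed to 548, 334, 474 and 609 CPM in HSA + LDN and 629, 375, 709 and 953 CPM in HSA + SB + LDN. Of these, KDR, the VEGF receptor, named after its values were seen, was called higher, at 67.9, 47.9, 54.6 and 53.4 and 93.0, 56.8, 108 and 125 CPM (log2 fold change 0.79, SE 0.20, edgeR adjusted p = 0.0465), with an adjusted p of 0.0572 to 0.147 without HSA + LDN replicates 1, 2, 3 or 4 or HSA + SB + LDN replicates 1, 3 or 4. Endothelial sums were 526, 383, 436 and 626 CPM in HSA/day 10, 365, 185, 375 and 492 CPM in fetuin-A and 711, 478, 718 and 1064 CPM in HSA + SB. Ductal markers, 6 of 8 matched and led by SPP1, summed to 4395, 5626, 4892 and 4362 CPM in HSA + LDN and 4609, 5489, 4719.8 and 4891 CPM in HSA + SB + LDN. The ductal sum in HSA/day 10 was 4086, 5812, 7675 and 4276 CPM, in fetuin-A 7854, 8872, 7268 and 7398 CPM and in HSA + SB 4757, 5873, 5326 and 5033 CPM, and the third HSA/day 10 library was the highest of its group and within the range of fetuin-A. CA2, carbonic anhydrase, also named after its values were seen, rose with SB431542 beside LDN, at 38.0, 37.1, 36.8 and 36.5 and 86.3, 63.9, 68.1 and 76.4 CPM (log2 fold change 1.01, SE 0.12, edgeR adjusted p = 0.000102). Macrophage and leucocyte markers, 10 of 10 matched and led by CD68, summed to 28.1 to 53.5 CPM over the HSA + LDN libraries and 31.1 to 62.9 CPM over the HSA + SB + LDN libraries, and the T cell marker CD3E had a mean of 0 in 4 of the 6 groups.

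Beta cell markers, 5 of 8 matched and led by INS, summed to 1644, 1014, 4548 and 6133 CPM in HSA + LDN and 1842, 1168, 3566 and 4539.8 CPM in HSA + SB + LDN. In HSA/day 10 the sum was 1594, 500.1, 2846 and 6001 CPM, in fetuin-A 310.1, 181, 1832 and 940.4 CPM and in HSA + SB 1644, 1066, 3199.7 and 4854 CPM. Alpha, delta and PP cell markers, 6 of 6 matched and led by GCG, summed to 25332, 17038, 23709 and 28412 CPM in HSA + LDN and 20401, 15285, 21887 and 23223 CPM in HSA + SB + LDN. Their sum was 28797, 18371, 19447 and 26941 CPM in HSA/day 10, 2514, 1633, 10308 and 4937 CPM in fetuin-A and 17278, 13660.0, 20062 and 21937 CPM in HSA + SB, and HSA/day 10 replicate 3 was here within its group. The part of these cell types in the levels of the 111 genes was not tested.

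Position was looked at only as order along the genome. Of the 111, 91 had a protein-coding entry by symbol in the pig RefSeq table (Sscrofa11.1), and 1 pair, HAPLN1 and EDIL3, were next to each other in that order; the other 20 genes were not placed, and no distance was computed. EDIL3, an integrin-binding matrix protein named for this position, was at 13.1, 23.7, 5.71 and 11.8 CPM in HSA + LDN and at 1.95, 3.24, 2.34 and 2.33 CPM in HSA + SB + LDN, which did not overlap.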

How the data were processed

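The authors deposited raw counts per gene for 25880 identifiers and 24 libraries, 1 column per library; 6 of the libraries are listed as 2 runs, and how these were joined is not stated. The submitters' processing notes list FastQC 0.11.8, Trim Galore 0.5, STAR 2.6.1, Picard, featureCounts 1.6.2 and DESeq2 1.22.1. The genome build and the annotation are not given in the sources used here. CPM and group ratios were computed from the counts as the rule for the genes states. Reference tables paired 14857 of the 25880 identifiers with a symbol; RefSeq (Sscrofa11.1) was used for names and neighbours.

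Counts were tested with edgeR 4.0.16 (R 4.3.3; limma 3.58.1): filterByExpr, TMM, 1 coefficient per group over all 24 libraries, glmQLFit, glmQLFTest and Benjamini-Hochberg adjustment over the 14842 genes kept, which include all 111. The procedure was tested on simulated data. Tables were made with Python 3.11.15 and pandas 2.3.3. The fit was unpaired, because the design text names 4 independent preparations and assigns no library to any. No pair of libraries of a group was alike within counting noise (36 pairs, chi-square per degree of freedom from 15.2 to 88.4). Alternatives were DESeq2 1.42.0 (size factors or Wald test), other filters on low counts, the compared groups alone, other forms of the rule, and libraries left out 1 at a time. In the tests only libraries of the compared groups and HSA/day 10 replicate 3 were left out. In the rule, libraries of HSA/day 10, fetuin-A and HSA + SB were left out.

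The members of the set and the gene lists were chosen with earlier results of these data known. The lists were extracellular matrix, TGF-β pathway, BMP pathway, beta cell, other hormones, cell cycle and markers of 9 cell types, and roles were grouped after values were seen. Named by rule were the 10 genes of the set with the highest mean in HSA/day 10, the 10 with the smallest and, from 5 CPM, the 4 with the largest p in HSA + SB + LDN against HSA + LDN, up to 6 of each list by level, and the genes at each threshold. Other names were chosen after values were seen. No column was left out.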

Additional observations from a re-analysis of the deposited data

Results flagged for a closer look

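Of 216 groups of 4 libraries looked at (named genes, the summed share, the median level and the stellate marker sum), 16 had 1 library far from the other 3, by the gap to its nearest neighbour relative to the range of the group. Chance alone does this for about 1 in 20 groups. Of the 16, 5 lay in HSA/day 10 replicate 3, all of them low. In that library the 111 genes held 0.431% of the counts (1.15 to 1.26% in the other 3), and their median log2 level relative to the HSA/day 10 mean was −1.22 (0.13 to 0.28). Its stellate marker sum was 1129.5 CPM (5482 to 6103), PMEPA1 was at 252 CPM (464 to 498) and FSTL1 at 107 CPM (337 to 372).

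HAPLN1 was high in replicate 4 of 3 groups: 15.6 CPM in HSA/day 10 (4.28 to 6.03), 6.12 CPM in HSA + SB (1.68 to 2.22) and 17.4 CPM in HSA + LDN (5.74 to 6.99). Fetuin-A replicate 4 was high for COL8A2, 4.201 CPM (0.701 to 0.876), and THBS2, 129 CPM (31.4 to 35.5). In HSA + SB replicate 4, ENSSSCG00000011355 was at 53.9 CPM (31.3 to 31.4) and BNC2 at 3.16 CPM (1.42 to 1.602). HSA + SB + LDN replicate 2 was high for CYP1A1, 293 CPM (33.4 to 65.9), and ANGPT4, 0.476 CPM (0.0477 to 0.0975). HSA/day 6 replicate 2 was high for PMEPA1, 469 CPM (358 to 372), and UPK3A, 0.827 CPM (0.413 to 0.481).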

How the results depend on the processing

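The 39 genes that fell in HSA + SB + LDN against HSA + LDN numbered 63 with the Wald test of DESeq2, and the cause was not tested. Other tools and filters gave 28 (of the 84 with at least 10 counts in every library) to 42. With single libraries left out the number was 21 to 52. The shares of all tested genes called in these other fits are not given, so the counts show only how the number moved. The median log2 fold change of −1.32 over all 111 genes ranged from −1.51 to −1.24 with single libraries left out. It was −1.17 for the 154 genes chosen without the third HSA/day 10 library. The 49 genes higher in HSA + LDN than in HSA/day 6 ranged from 41 to 50 without single libraries, the 43 lower in HSA + SB + LDN from 34 to 47, and the 111 genes of the rule from 94 to 154. Of the 111, 77 were still chosen without HSA/day 10 replicate 4 and 87 without its replicate 1. Under the rule, medians gave 118 genes, 98 of them among the 111, and 1 CPM added to each mean 89. Without HSA/day 10 replicate 3, the 34 genes with fetuin-A libraries all below HSA/day 10 were 94, and the 48 with HSA + SB libraries all below it were 94. CYP1A1 reversed to −0.03 without HSA + LDN replicate 4 and to −0.99 without HSA + SB + LDN replicate 2 (0.42 without HSA + SB + LDN replicate 4), where fewer libraries entered the fit. Of 956 values of named genes under alternatives, 866 kept their direction and their side of the threshold, 68 lost their call, 20 gained 1 and 2 reversed. In HSA + SB + LDN against HSA + LDN, the named genes SLC7A8, TNC, ENG, FHOD3, ANTXR1, TP63, ANGPT4 and PRRX2 were called by DESeq2 and not by edgeR. The fit of the 2 groups alone gained COL1A1 (adjusted p = 0.017), BGN and FSTL1 and lost LEF1, CXCL14 and KDR; KDR was also lost under both other filters. The DESeq2 Wald test called 13 extracellular matrix genes (8 with edgeR) and 2 BMP genes (1 with edgeR), and the fit of the compared groups alone called 7 TGF-β pathway genes (11 with all groups). The shares of all tested genes called in these fits are not given, so nothing is read from these counts. The fits without HSA/day 10 replicate 3, those of HSA + SB + LDN against HSA/day 6, of the lists and of the added genes, and the genes chosen without that library, were chosen after seeing the data. No paired analysis was made, because replicate numbers follow the listing order and no library is assigned to a preparation. The acinar marker sum was highest in replicate 1 and lowest in replicate 4 in all 6 groups. In all 6 the Schwann and neural marker sum was highest in replicate 4. Libraries with 1 number may therefore have a source in common. Within every number, the acinar and endothelial sums were higher in HSA + SB + LDN than in HSA + LDN, and the contractile sum was lower. The unpaired fits take no account of a common source, and its part in the calls was not tested.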
